A study of Mus musculus with 31 samples.

Results

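The Slc25 mitochondrial carriers were taken as all rows of the deposited count table whose gene symbol begins with Slc25a, which gave 47 of its 20544 genes. At least 1 count was found for each of the 47 in some embryo, and 16 of them were detected in all 31 embryos. The low-count filter of edgeR kept 28 of the 47 among the 8571 genes tested, and 19 were too low to be kept.

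The libraries were single mouse embryos at the 2-cell stage, obtained by in vitro fertilization and collected at 32 h after insemination, 16 from control sperm and 15 from sperm given Sperm Energy Restriction and Recovery (SER). Sperm of both groups came from C57BL/6J males of 12 to 14 weeks and eggs from superovulated CD1 females of 8 to 10 weeks, with one cauda epididymis of a male going to each treatment. Control sperm stayed in complete medium, whereas SER sperm were held without glucose and pyruvate until they stopped moving, after 15 to 45 min, and both were then given complete medium and left with the eggs for 4 h. The labels tie no embryo to a male, a female or a dish, so p-values measure the spread between embryos.

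Proteins of this family sit mostly in the inner mitochondrial membrane, where each moves a particular substrate, such as ADP and ATP, phosphate, amino acids, carboxylates, cofactors or iron, between the cytosol and the matrix. In the mouse, the 2-cell stage is when stored maternal transcripts are being cleared and the major wave of zygotic transcription takes place. The egg's mitochondria serve the embryo through the first divisions, and their transport proteins are encoded in the nucleus.

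Total counts per library ran from 532945 to 2085222 in control- and from 642321 to 3088396 in SER-generated embryos. All 9 marker genes of oocyte and 2-cell embryo were expressed at tested levels. Summed cumulus cell markers reached from 9.05 to 1560 counts per 1000000 counts of the library (CPM) in control and from 3.51 to 302 in SER-generated embryos, of which Amhr2, detected in 29 embryos, was the only marker of 7 to pass the filter. In SER-generated embryos Amhr2 averaged 132 CPM and the next marker, Cyp11a1, 2.45, while Cyp11a1 reached 1423 CPM in control embryo 5. Whether the Amhr2 counts came from cumulus cells was not tested. Summed sperm markers reached at most 24.1 CPM and summed macrophage markers at most 167. The macrophage markers Cd68 (98.3 CPM) and Lyz2 (53.5 CPM) were highest in SER embryo 13. That embryo also held the highest SER value of Slc25a1, Slc25a4, Slc25a5, Slc25a10, Slc25a12 and Slc25a23. The part of the macrophage markers in those values was not tested. On a score of zygotic minus maternal transcripts described further on, control embryo 4 and SER embryo 15 stood far below the other 29, and results that they move are given with and without them. A library is a whole embryo, so fewer contributing cells and less RNA per cell cannot be told apart. The study used several batches of control- and SER-generated embryos that are not identified in the labels or the table. Batch therefore could not be modelled, and its part in differences between embryos or groups was not tested.

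Carrier transcripts took 0.247% ± 0.0409 (SD, n = 16) of the counts of a control- and 0.259% ± 0.0316 (SD, n = 15) of those of a SER-generated embryo. To compare levels between genes, CPM was divided by the kilobases of exon of each gene in GENCODE vM21 on GRCm38, called the per-kb level below. By this level 8 genes held 67.7% ± 5.33 (SD, n = 31) of the family's transcripts, and the remaining 39 shared the rest.

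**Figure D1:**
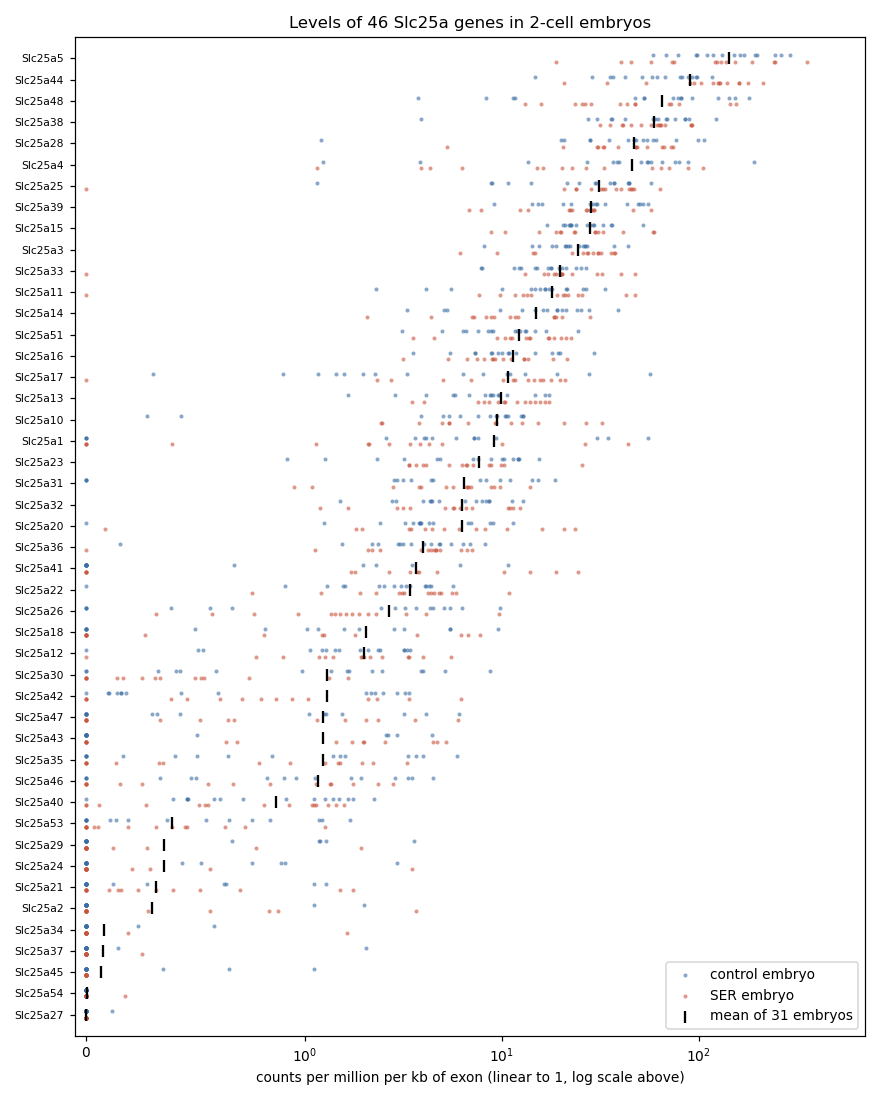
Per-kb level of 46 Slc25a genes (horizontal axis, CPM per kb of exon, linear to 1 and logarithmic above) in every embryo, with a bar at the mean of the 31. The gene means run from 143 for Slc25a5 down to genes with 1 count in the whole series, and the groups overlap in each tested gene drawn.

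Slc25a5, the widely expressed ADP/ATP carrier, was first at a per-kb level of 143 ± 80.6 (SD, n = 31). Slc25a44, a carrier of branched-chain amino acids, followed at 90.2 ± 48.8. The mean difference between them was 52.8 ± 108 (SD, n = 31) and differed from 0 (2-sided sign-flip permutation test, p = 0.00986). Slc25a5 was the higher in 22 of 31 embryos. Slc25a48, linked to choline import, stood at 65.4 ± 49.1 and Slc25a38, the glycine carrier of heme synthesis, at 59.7 ± 24.9. Neither Slc25a44 and Slc25a48 (permutation p = 0.121) nor Slc25a48 and Slc25a38 (permutation p = 0.591) could be ordered. The next step came between Slc25a38 and Slc25a28, an iron importer at 46.7 ± 24.1 (permutation p = 0.00599). Below it, Slc25a4, the heart and muscle ADP/ATP carrier (45.7 ± 39.99), Slc25a25, an ATP-Mg/phosphate carrier regulated by calcium (31.3 ± 15.6), and Slc25a39, needed for glutathione import (28.4 ± 14.3), could not be ordered against their neighbours (permutation p from 0.0775 to 0.906). Without the 2 embryos that stand apart, the leading 8 genes remained the same, and Slc25a38 (61.0) came before Slc25a48 (58.4). Slc25a44 then exceeded Slc25a48 on average (permutation p = 0.0150). In all, 8 such neighbouring pairs were compared, with p-values not adjusted.

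The order depended in part on length, since Slc25a25 has 7862 bases of exon and Slc25a5 has 1646. Without division by length, 6 of the 8 leading genes stayed among the leading 8. Slc25a44 was then first by mean CPM (323), before Slc25a25 (246) and Slc25a5 (235), an order that was not tested. Some carriers varied little between embryos and others greatly. The coefficient of variation of CPM among tested genes was smallest for Slc25a3, the phosphate carrier (37.6%), Slc25a38 (41.7%) and Slc25a15, the ornithine carrier (43.1%). It was largest for Slc25a1, the citrate carrier (153%), Slc25a17, a peroxisomal cofactor carrier (104%), and Slc25a26, which imports S-adenosylmethionine (95.3%). Without the 2 embryos that stand apart, the same 3 were largest, and the smallest were Slc25a3 (32.1%), Slc25a15 (40.5%) and Slc25a33 (40.6%), with Slc25a38 at 41.5%. Slc25a1 had no count in 6 of 31 embryos yet reached 120 CPM in control embryo 5 and 94.8 in SER embryo 13. Control embryo 5 was also the embryo with 1423 CPM of Cyp11a1, a steroidogenic cumulus marker, whose part in the Slc25a1 value was not tested. SER embryo 13 was the embryo with the highest Cd68 and Lyz2 values, and the part of these macrophage markers was not tested either.

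At the other end, several carriers were at or near 0. Slc25a54 and Slc25a27, a neuronal uncoupling-protein relative, had 1 count each in the series. Slc25a45 had 5 counts, Slc25a34 had 9, Slc25a2, an ornithine carrier and the relative of Slc25a15, had 12, and Slc25a37, the iron importer of red cell precursors, had 13. In a single embryo a count of 0 allows up to 3 counts, which was 5.63 CPM in the shallowest control library and 0.971 CPM in the deepest SER library.

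Short stretches of promoter are shown for 3 carriers whose transcripts followed the zygotic-minus-maternal score described further on, 2 upwards and 1 downwards, so that the sequence can be read beside the values. Each is the 150 bases before the RefSeq start on GRCm38.p6, 5′ to 3′ on the gene's strand, with GC boxes (GGGCGG) and CCAAT boxes (CCAAT), on either strand, in capitals. Slc25a28 is shown from chr19:43674882-43675031 (minus strand), Slc25a25 from chr2:32451471-32451620 (minus strand) and Slc25a48 from chr13:56438205-56438354 (plus strand).
Slc25a28: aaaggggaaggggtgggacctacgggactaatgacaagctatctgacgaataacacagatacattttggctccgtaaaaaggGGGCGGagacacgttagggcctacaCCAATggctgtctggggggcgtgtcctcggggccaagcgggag
Slc25a25: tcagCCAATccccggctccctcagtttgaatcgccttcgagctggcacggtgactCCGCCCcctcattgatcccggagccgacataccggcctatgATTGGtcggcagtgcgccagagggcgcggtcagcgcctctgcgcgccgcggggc
Slc25a48: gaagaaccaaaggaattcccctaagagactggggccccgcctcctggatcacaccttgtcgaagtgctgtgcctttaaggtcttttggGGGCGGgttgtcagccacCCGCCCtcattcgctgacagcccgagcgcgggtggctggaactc
All 3 stretches held a GC box, and those of Slc25a28 and Slc25a25 also held CCAAT boxes. The promoter table matched 36 of the 47 members, and Slc25a44 was not among them. Over 250 bases before the start, the letters GGGCGG stood in 16 of the 23 tested members with an entry, against 61.1% of 6920 tested genes and 32.7% of all 27025 promoters. CCAAT stood in 10 of the 23, against 37.6% of the tested genes, and the E-box letters CACGTG in 6 of the 23, against 9.05%. TATAAA was in none of the 23 windows, against 5.65%. Where a gene had several promoter entries, members were read at the one nearest the GENCODE gene start. The background was read at the one of lowest coordinate, so the shares are not strictly alike. These are matches of letters only.

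SER- and control-generated embryos were compared to see which carriers respond to the sperm treatment. No Slc25a gene passed the test: 0 of the 28 had an adjusted p under 0.1 (edgeR quasi-likelihood test, Benjamini-Hochberg over 8571 genes), where the share of all tested genes called was 0.0%. At an unadjusted p under 0.05, 1 of the 28 was found, against 5.73% of all tested genes. That 1 was higher in SER-generated embryos, against 2.18%, and 0 were lower, against 3.55%. Limma voom with sample weights called 4 of the 28, against 9.89%, while DESeq2 called 0, against 0.572%, and edgeR with surrogate variables 0, against 0.712%. Estimates were higher in the SER group for 13 of the 28 and lower for 15, and 52.7% of all tested genes had a higher one. Without the 2 embryos that stand apart, 0 of the 28 were called as well, and log2 fold changes were -0.60 for Slc25a4, -0.74 for Slc25a14 and 0.59 for Slc25a20. The median log2 fold change was -0.02 over the 28 and 0.02 over all genes, and estimates ran from -0.62 to 0.81.

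**Figure D2:**
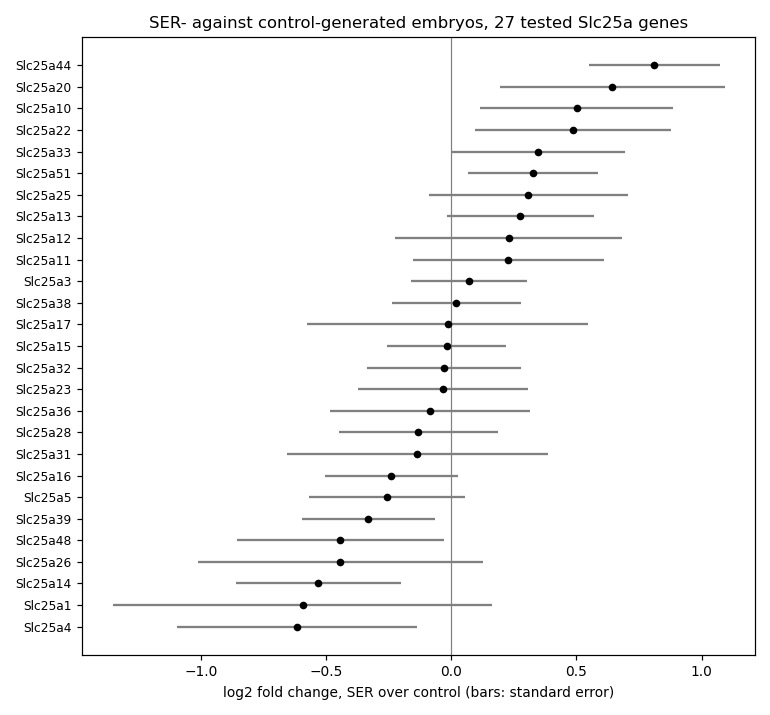
Log2 fold change of 27 tested Slc25a genes, SER- over control-generated embryos (horizontal axis, log2 units), with bars of 1 standard error. Slc25a44 lies farthest right at 0.81 and Slc25a4 farthest left at -0.62, and no gene drawn had an adjusted p under 0.1.

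The gene with the smallest p was Slc25a44, a minus-strand gene of chromosome 3 (88410498 to 88425139). Levels of Slc25a44 in control-generated embryos ran from 52.8 over a median of 230 to 417 CPM, and in SER-generated embryos from 74.4 over a median of 446 to 758. The groups overlapped, although 9 SER-generated embryos lay above the highest control embryo. Means were 235 ± 105 (SD, n = 16) and 416 ± 188 (SD, n = 15), a log2 fold change of 0.81 (SE 0.26) with an adjusted p of 0.465 by edgeR. A permutation test of the CPM alone, 1 of 47 such tests, gave an unadjusted p = 0.00211. Leaving out single embryos kept the estimate between 0.73 and 0.89, with adjusted p from 0.171 to 0.918. Without control embryo 4 and SER embryo 15 it was 0.80 (adjusted p = 0.250). Limma voom with sample weights was the only alternative that called Slc25a44 (log2 fold change 0.91, adjusted p = 0.0168).

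**Figure D3:**
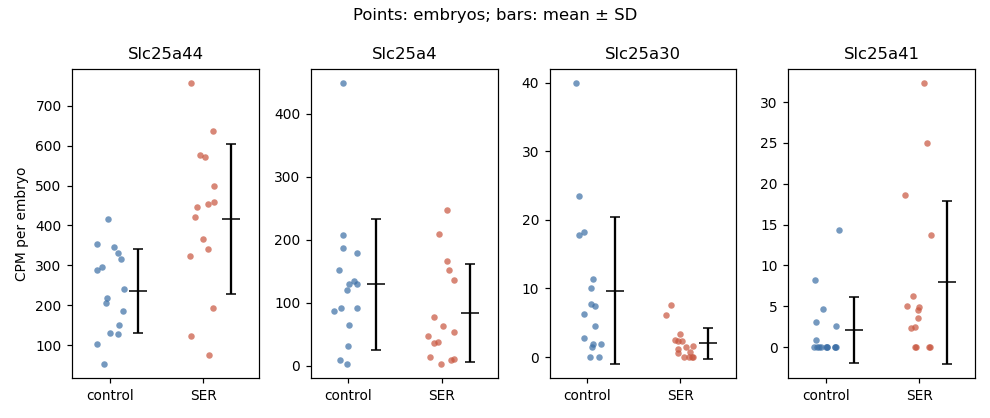
CPM of Slc25a44, Slc25a4, Slc25a30 and Slc25a41 in each control- and SER-generated embryo (vertical axes), with mean and SD beside the points. The groups overlap for each gene, with Slc25a44 at 235 ± 105 and 416 ± 188 and Slc25a30 at 9.69 ± 10.7 and 1.99 ± 2.25.

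Among the carriers that exchange ADP, ATP and phosphate, 6 of 8 were tested, with 2 higher and 4 lower estimates and no call. Slc25a4 had the lowest estimate of the 28 tested members. Its CPM ran from 2.93 over a median of 125 to 450 in control- and from 2.73 over a median of 53.8 to 247 in SER-generated embryos. Both groups spanned a range of levels from near 0 to above 200, and the log2 fold change was -0.62 (SE 0.48) with an adjusted p of 0.935 by edgeR. With voom it was -1.43 and past the threshold (adjusted p = 0.0299), and with surrogate variables -1.08 (adjusted p = 0.191). Without control embryo 5, which held the highest Slc25a4 value and 1423 CPM of the cumulus marker Cyp11a1, the estimate was -0.37, and the part of that marker in it was not tested. The more abundant Slc25a5, on chromosome X, ranged from 96.3 to 478 CPM (median 234) in control- and from 30.9 to 581 (median 204) in SER-generated embryos. Slc25a31, the ADP/ATP carrier of germ cells, was lower, with medians of 9.49 and 14.1 CPM. The coding sequences of Slc25a4, Slc25a5 and Slc25a31 are related, and the genome also holds the pseudogene Slc25a5-ps. How surely reads were assigned between them was not tested.

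Slc25a3, which brings in the phosphate that ATP synthase needs, was among the steadiest members, with medians of 122 CPM in control- and 153 in SER-generated embryos and a log2 fold change of 0.07 (SE 0.23). Slc25a25 had medians of 236 and 263 CPM, and Slc25a23, another ATP-Mg/phosphate carrier, medians of 43.6 and 34.9 CPM. Their relative Slc25a24 had 51 counts in 10 embryos. Slc25a41, also of this subgroup, failed the filter and had a count in 6 of the 16 control and 11 of the 15 SER embryos. After thinning to equal depth it had one in 5 and 10. The edgeR fit without the filter gave it an estimate of 1.75 on the log2 scale (SE 0.87, adjusted p = 0.457).

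For carriers of amino acids, carnitine and choline, 8 of 13 were tested, with 6 higher and 2 lower estimates. Slc25a15 had medians of 143 CPM in control- and 133 in SER-generated embryos, with a log2 fold change of -0.02 (SE 0.24). Slc25a38 had a median of 168 CPM in both groups. Slc25a20, which exchanges acylcarnitines for carnitine in fatty acid oxidation, ran from 0 over 18.8 to 55.6 CPM in control- and from 0.435 over 24.8 to 115 in SER-generated embryos. The highest values were in SER-generated embryos while the medians were close, and the estimate was 0.64 (SE 0.45, adjusted p = 0.935). It was 0.14 with surrogate variables and 0.42 without SER embryo 10, which held the highest value of 115 CPM. Slc25a22, a glutamate carrier, had medians of 17.7 and 25.2 CPM, whereas its relative Slc25a18 was detected in 20 embryos only. The aspartate/glutamate carriers of the malate-aspartate shuttle had medians of 12.6 and 14.4 CPM for Slc25a12 and of 33.3 and 39.6 for Slc25a13. Slc25a48 ran from 12.7 over 258 to 605 CPM in control- and from 44.4 over 145 to 520 in SER-generated embryos, an estimate of -0.44 (SE 0.41) that voom, but not edgeR, placed past the threshold.

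Of 12 carriers of pyrimidine nucleotides and cofactors or their close relatives, 9 were tested, and 3 had higher and 6 lower estimates. Slc25a33 and Slc25a36, which carry pyrimidine nucleotides, had similar medians, of 33.05 and 37.8 CPM for Slc25a33 and of 36.2 and 42.0 for Slc25a36. Slc25a51, the NAD carrier, had medians of 57.0 and 76.3 CPM (log2 fold change 0.33, SE 0.26), and Slc25a39 medians of 81.5 and 73.5. Slc25a16, linked to coenzyme A, had medians of 49.9 and 44.3 CPM. Slc25a17 had the largest coefficient of variation of the 9 tested. Control embryos ran from 0.874 over 13.7 to 161 CPM and SER-generated embryos from 0 over 33.3 to 59.6, so that the SER median was the higher while the highest embryo was a control, control 1. Its log2 fold change was -0.01 (SE 0.56) by edgeR, and voom called it. Slc25a26 had medians of 14.8 and 7.77 CPM. Slc25a32, which carries folate, had a log2 fold change of -0.03 (SE 0.31).

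Of the 6 carriers of di- and tricarboxylates or their relatives, 3 were tested. Slc25a11, the oxoglutarate/malate carrier, had medians of 35.2 CPM in control- and 40.3 in SER-generated embryos. The dicarboxylate carrier Slc25a10 had medians of 31.3 and 32.0 CPM, with a highest value of 111 in SER embryo 13. Slc25a1, with medians of 11.1 and 5.82 CPM, had the widest error of the tested members (log2 fold change -0.60, SE 0.76). Slc25a11 shares 189 exon bases with Rnf167 and Slc25a35 shares 1151 with Rangrf, both on the opposite strand, and the strand setting of the counting is not given in the sources used here.

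Of the 2 iron carriers, only Slc25a28, on chromosome 19, passed the filter, and transcripts of Slc25a37 were nearly absent. Slc25a28 ran from 4.53 over 179 to 398 CPM in control- and from 19.9 over 178 to 276 in SER-generated embryos, and the log2 fold change was -0.13 (SE 0.32). Slc25a37 had 11 of its 13 counts in control embryo 14. Without the filter its estimate was -2.45 (adjusted p = 0.164), and without that embryo it was 0.07.

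Among relatives of the uncoupling proteins, Slc25a14 was tested and had medians of 42.7 and 26.1 CPM (log2 fold change -0.53, SE 0.33, edgeR adjusted p = 0.912). Slc25a30, a minus-strand gene of chromosome 14 (75760117 to 75787037), failed the filter. It ran from 0 over 6.88 to 39.99 CPM in control- and from 0 over 1.45 to 7.61 in SER-generated embryos. The groups overlapped at the low end, and 7 control embryos lay above the highest SER-generated embryo. In the fit without the filter, where 2.83% of all 17803 genes were called, the log2 fold change was -2.34 (SE 0.75, edgeR adjusted p = 0.113). The permutation test of its CPM gave an unadjusted p = 0.00314, and leaving out single embryos moved the adjusted p between 0.0781 and 0.269. With DESeq2's size factors the adjusted p was 0.0985, past the threshold. It was 0.103 without the 2 embryos that stand apart. Whole-series counts for Slc25a30 were only 202. After thinning to equal depth it was detected in 14 control- and 8 SER-generated embryos. The only member called in that fit, Slc25a45, rested on 5 counts in 3 control embryos (adjusted p = 0.0929).

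Slc25a46, which acts in mitochondrial fission at the outer membrane, Slc25a43 and Slc25a54 have no firmly assigned substrate, and none of these 3 passed the filter. Slc25a46 was detected in 24 embryos at medians of 5.07 and 3.65 CPM.

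Related carriers were then compared within each embryo as a log2 ratio of per-kb counts, with 0.5 added to each count. Of 14 pairs computed, both genes passed the filter in 5, and these are given here without adjustment of p. Slc25a5 exceeded Slc25a4 in 30 of 31 embryos, with a log2 ratio of Slc25a4 over Slc25a5 of -2.14 ± 1.87 (SD, n = 31; sign-flip permutation p = 1e-05, the smallest that 100000 resamples can give). Slc25a5 exceeded Slc25a31 in all 31, with a log2 ratio of 4.80 ± 2.10 (permutation p = 1e-05). Slc25a13 exceeded Slc25a12 in 30 of 31, with a log2 ratio of Slc25a12 over Slc25a13 of -2.57 ± 1.70 (permutation p = 1e-05). The exceptions were control embryo 5, with 0.33 for Slc25a4 over Slc25a5, and control embryo 6, with 0.19 for Slc25a12 over Slc25a13. In the 2 embryos that stand apart the ratio of Slc25a4 over Slc25a5 was -4.55 and -7.23. Without these 2 it was -1.88 ± 1.59 (SD, n = 29).

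The other pairs depended on gene length. Slc25a33 exceeded Slc25a36 in all 31 embryos per kb (log2 ratio 2.43 ± 0.97, SD, n = 31, permutation p = 1e-05), but in raw counts the ratio was 0.08 (permutation p = 0.655). Slc25a10 over Slc25a11 was -0.95 ± 2.00 per kb (permutation p = 0.00881) and -0.24 in raw counts (permutation p = 0.538). Without the 2 embryos that stand apart, the per-kb ratio was -0.75 (permutation p = 0.0340), and all pairs with both genes tested stayed past an unadjusted p of 0.05. None of the 14 ratios differed between the groups at p under 0.05, with permutation p from 0.0603 to 0.726.

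**Figure D4:**
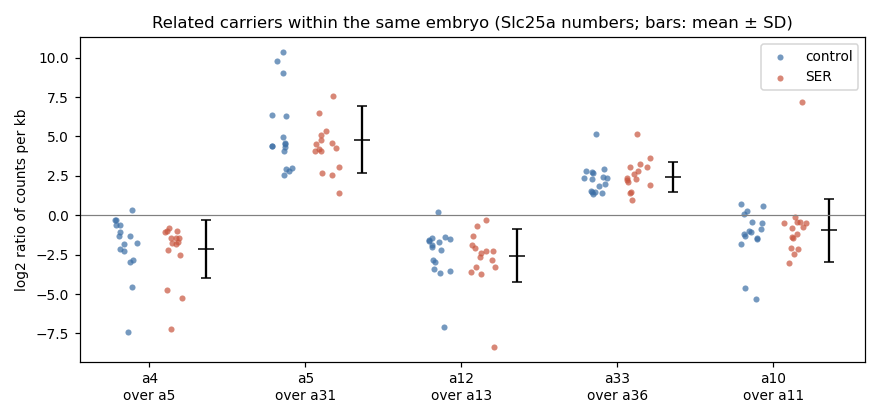
Log2 ratio of per-kb counts of related carriers in the same embryo (vertical axis, log2 units) for the 5 pairs with both genes tested, with control and SER embryos as points and mean ± SD over all 31 as bars. The means are -2.14 for Slc25a4 over Slc25a5, 4.80 for Slc25a5 over Slc25a31, -2.57 for Slc25a12 over Slc25a13, 2.43 for Slc25a33 over Slc25a36 and -0.95 for Slc25a10 over Slc25a11.

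Embryos collected at the same hour can differ in how far maternal clearance and zygotic transcription have gone. A score was computed per embryo as the mean log2 CPM of 30 listed zygotic genes minus that of 30 listed maternal genes, with no carrier in either list. Control embryo 4 scored -5.59 and SER embryo 15 -5.23, and the other 29 lay between -2.14 and 0.46. Over these 29, control embryos averaged -0.91 ± 0.58 (SD, n = 15) and SER-generated embryos -0.64 ± 0.68 (SD, n = 14), a difference within their spread (permutation test, p = 0.255). The score also had a Pearson r of 0.385 with the log2 of the library total, whose part in the correlations below was not tested beyond the thinned counts.

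Over the 29 embryos, log2 CPM correlated with the score at an adjusted p under 0.1 for 10 of the 28 tested carriers, where the share was 33.4% of all 8571 tested genes. Of these, 5 rose with the score, against 17.9% of all genes, and 5 fell, against 15.5%. The carriers thus followed the score about as often as genes in general. The sign of r was positive for 10 of the 28, against 48.2% of all genes. Each r was tested by 100000 permutations with Benjamini-Hochberg adjustment over the 8571 genes. The control group alone gave 3 of the 28, against 14.4% of all genes, and the SER group alone 0, against 2.04%. With the zygotic list alone 6 of the 28 passed, against 19.6%, and without the 2 farthest embryos 8, against 24.5%. On thinned counts 13 of 24 passed, against 39.3%, and over all 31 embryos 13 of the 28, against 55.7%.

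**Figure D5:**
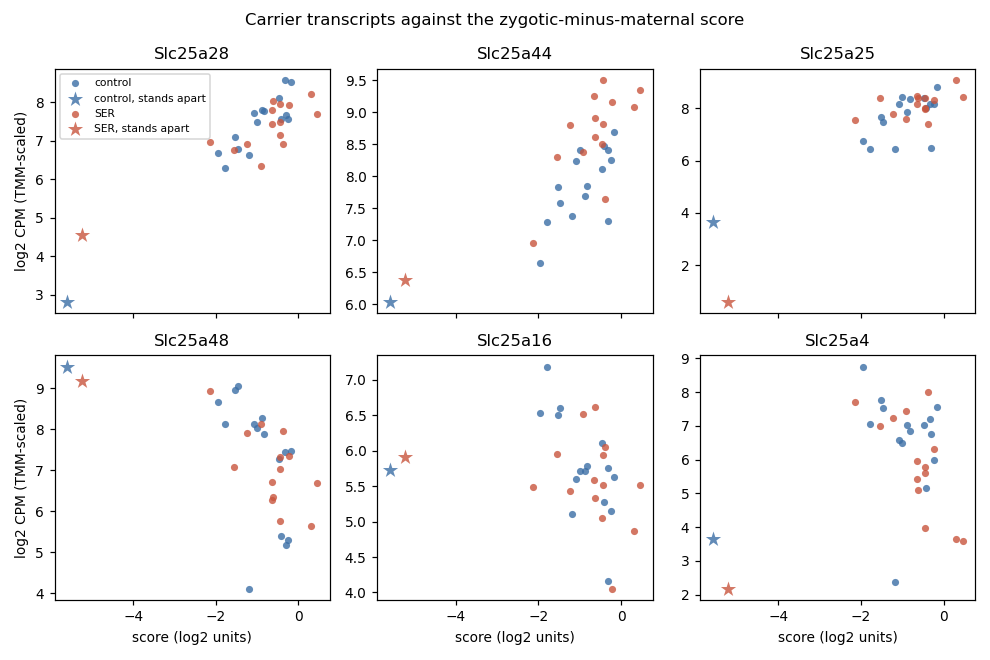
TMM-scaled log2 CPM (vertical axes) of 6 carriers against the zygotic-minus-maternal score (horizontal axes, log2 units), with stars for the 2 embryos that stand apart. Over the other 29, Slc25a28, Slc25a44 and Slc25a25 rise with r of 0.69, 0.68 and 0.54, while Slc25a48, Slc25a16 and Slc25a4 fall with r of -0.55, -0.52 and -0.51.

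The closest to the score was Slc25a28 (r = 0.69, permutation adjusted p = 0.00182, Spearman rho = 0.68, adjusted p = 0.00330). Slc25a44 was next (r = 0.68, permutation adjusted p = 0.00243, rho = 0.57, adjusted p = 0.0125). Both held their direction within each group, at r of 0.84 in control and 0.62 in SER embryos for Slc25a28 and of 0.69 and 0.68 for Slc25a44. Within SER embryos neither passed (permutation adjusted p = 0.190 for Slc25a28 and 0.163 for Slc25a44). Against the zygotic list alone r was 0.36 for Slc25a28 and 0.28 for Slc25a44, and neither passed (adjusted p = 0.183 and 0.319 by permutation). Against the maternal list alone, sign turned, r was 0.51 and 0.60, and both passed (adjusted p = 0.0253 and 0.00467 by permutation). Without the 2 of the 29 embryos farthest from the median score, r was 0.68 for Slc25a28 and 0.55 for Slc25a44. With the score as a covariate, the SER-to-control log2 fold change of Slc25a44 was 0.62 (edgeR adjusted p = 0.383).

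Slc25a25 (r = 0.54, permutation adjusted p = 0.0189, rho = 0.46), Slc25a17 (r = 0.42, permutation adjusted p = 0.0807, rho = 0.51) and Slc25a38 (r = 0.40, permutation adjusted p = 0.0945, rho = 0.36) also rose. Against the zygotic list alone r was -0.04 for Slc25a25 and -0.07 for Slc25a38, whereas against the maternal list alone, sign turned, it was 0.81 and 0.66. Slc25a38 no longer passed by rank correlation (adjusted p = 0.140). Without the 2 farthest embryos r was 0.48 for Slc25a25, 0.45 for Slc25a17 and 0.35 for Slc25a38, the last no longer passing (permutation adjusted p = 0.195).

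Slc25a48 (r = -0.55, permutation adjusted p = 0.0164, rho = -0.60), Slc25a16 (r = -0.52, permutation adjusted p = 0.0260, rho = -0.47), Slc25a4 (r = -0.51, permutation adjusted p = 0.0293, rho = -0.45), Slc25a39 (r = -0.48, permutation adjusted p = 0.0398, rho = -0.44) and Slc25a31 (r = -0.41, permutation adjusted p = 0.0832, rho = -0.44) fell with the score. Of the 3 ADP/ATP carriers, Slc25a4 and Slc25a31 thus fell, and Slc25a5 had an r of -0.33 (permutation adjusted p = 0.188). Without the 2 farthest embryos the values were -0.46 for Slc25a48, -0.56 for Slc25a16, -0.40 for Slc25a4, -0.51 for Slc25a39 and -0.29 for Slc25a31, of which Slc25a4 and Slc25a31 no longer passed (permutation adjusted p = 0.127 and 0.286). The 2 farthest were SER embryo 8 (score -2.14) and control embryo 5 (-1.96). Control embryo 5 held the highest values of Slc25a4 and Slc25a31 and 1423 CPM of the cumulus marker Cyp11a1. The part of that marker in these correlations was not tested. Slc25a48 and Slc25a16 followed the zygotic list (r = -0.51 and -0.46) more than the maternal list with sign turned (r = -0.13 and -0.15), a contrast that was not tested. The fall of Slc25a4 was uneven between groups, at r of -0.21 in control and -0.72 in SER embryos, a difference that was not tested. Over all 31 embryos, its r was 0.24.

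The 2 embryos that stand apart are described here by their values, since their score chose them. In both, 5 of the 28 tested carriers lay below every other embryo, against 13.2% of all tested genes, namely Slc25a3, Slc25a25, Slc25a28, Slc25a36 and Slc25a44. Slc25a25 had 6 counts in control embryo 4 and 0 in SER embryo 15, while the other 29 ran from 69.2 to 501 CPM. Slc25a28 stood at 4.53 and 19.9 CPM, with the others from 75.1 to 398. Slc25a44 stood at 52.8 and 74.4 CPM, with the others from 103 to 758. Slc25a48 was the 1 carrier above every other embryo in both, at 605 and 520 CPM with the others at most 514, against 4.87% of all tested genes. Further carriers were extreme in 1 of them or low in both. Slc25a4 was at 9.05 and 2.73 CPM, the latter the lowest of the 31 embryos. Slc25a15 was at 205 and 335, the latter the highest. Slc25a33 was at 15.1 and 0 CPM, and Slc25a1 at 75.4 and 57.2 CPM, above its median in either group. Slc25a38, at 116 and 113 CPM, and Slc25a5, at 160 and 306, lay within the range of the other 29.

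Partners of the carriers were read from a list of 26 genes under other names, of which 18 were tested. None of the 18 was called by edgeR, as for all tested genes (0.0%), and none had an unadjusted p under 0.05, against 5.73%. In the SER group 4 had higher and 14 lower estimates, where 52.7% of all genes were higher, and their median was -0.31 on the log2 scale. All 3 outer-membrane channel genes (Vdac1, Vdac2 and Vdac3), which let metabolites reach the carriers, had lower estimates. So did all 4 tested genes of the carnitine shuttle, with list medians of -0.40 and -0.32. The estimate of Vdac1 was near 0 (-0.02, SE 0.17). Of the malate-aspartate shuttle enzymes 2 were higher and 2 lower, and of other tested inner-membrane transporters 2 were higher and 4 lower. With the score, 3 of the 18 passed, against 33.4% of all genes. Mpc2, a pyruvate carrier subunit (r = 0.49, permutation adjusted p = 0.0350), and Got1, an enzyme of the malate-aspartate shuttle (r = 0.51, permutation adjusted p = 0.0293), rose and Vdac3 (r = -0.52, permutation adjusted p = 0.0248) fell. The uncoupling proteins proper were scarce, with Ucp1 detected in 6, Ucp2 in 18 and Ucp3 in 4 of 31 embryos.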

How the data were processed

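Single 2-cell embryos were sequenced by Smart-seq3. Per the study's methods, the authors separated 5′ reads with molecular identifiers from internal reads, aligned both with STAR (build mm10 in the submitters' processing notes), took out duplicates and, after merging, assigned reads to genes with featureCounts. The deposited values are whole-number counts that were not normalized. Annotation and strand setting are not given in the sources used here, and no batch correction was possible. The authors corrected for batch with ComBat-seq before DESeq2 and reported differentially expressed genes. The calls given here, on uncorrected counts, are not a repeat of that test. No libraries were identical.

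Groups were compared with edgeR 4.0.16 (R 4.3.3; quasi-likelihood test, TMM, filterByExpr with minimum count 10 and total 15, Benjamini-Hochberg adjustment, 2-sided), with adjusted p under 0.1 as the threshold. Members removed by the filter were read from the fit of all 17803 genes with a count. CPM was taken on library totals of 532945 to 3088396 counts, and internal reads without identifiers make counting error a lower bound. Correlations used TMM-scaled log2 CPM with a prior count of 2. Permutations were 2-sided with 100000 resamples. Scripts were tested on simulated data.

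The score's correlations were taken over 29 embryos, since the planned pooled value required that embryos not form separate clusters. The members and lists were chosen with earlier results of these data known. Named were the 8 leading genes by per-kb level, filter-passing members of the pairs, members with unadjusted p under 0.05, the 3 most and 3 least variable, and the 5 highest and 5 lowest r with the score. Alternatives were another scaling, no or stricter filter, DESeq2 1.42.0, limma 3.58.1 voom, surrogate variables (sva 3.50.0), library size as a covariate, thinned counts, a replicate block and leaving out each embryo. Values of 1 tested member are not reported here, although it is part of the counts.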

Additional observations from a re-analysis of the deposited data

How the results depend on the processing

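For the 28 tested carriers, 4 were called by limma voom (Slc25a44, Slc25a4, Slc25a48 and Slc25a17), and 1 of 47 without the low-count filter, whereas edgeR with the filter, DESeq2, surrogate variables, another scaling with the filter, thinned counts, library size and leaving out each embryo (0 to 0 calls) gave none. Over all genes, 0 were called by edgeR, 504 without the filter, 61 with surrogate variables, 49 by DESeq2 and 848 by voom, and 0 to 0 on leaving out each embryo. DESeq2's size factors without the filter called Slc25a30. Without control replicate 14, the estimate of Slc25a37 turned from -2.45 to 0.069. DESeq2 without the filter gave no adjusted p for Slc25a30, Slc25a37, Slc25a41 and Slc25a45. For the score, the count of 10 carriers (share of all genes 33.4%) became 6 with the zygotic list alone (19.6%). It was 3 within control (14.4%) and 0 within SER embryos (2.04%), both on fewer embryos. Without the 2 farthest it was 8 (24.5%). On thinned counts it was 13 of 24 (39.3%), and over all 31 embryos 13 of 28 (55.7%). Values that turned were -0.071 for Slc25a38 and -0.040 for Slc25a25 with the zygotic list alone and 0.24 for Slc25a4 over all 31 embryos, an alternative chosen after seeing the data, as were the fits, ratios and levels without the embryos that stand apart. Apart from these 3 turns, among up to 9 alternatives the call was lost in 2 each for Slc25a28, Slc25a44 and Slc25a25, in 3 each for Slc25a48 and Slc25a16, in 5 each for Slc25a4, Slc25a39, Slc25a31 and Slc25a17 and in 7 for Slc25a38. The cause of these changes was not tested. Within pairs, 12 of 14 ratios passed without division by length, against 14, and Slc25a33 over Slc25a36 and Slc25a10 over Slc25a11 did not. The pairs not shown each hold a gene below the filter, such as Slc25a37, detected in 3 embryos, so their passing says little.

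Same-numbered control and SER embryos were not treated as paired, since the labels state no pairing. Over 15 same-numbered pairs their deviations correlated from -0.37 to 0.49, and 8 were over 0.1. Only 2 SER embryos correlated best with their own number. These values cannot tell whether same-numbered embryos shared a male, a dish or a batch. A fit with the replicate number as a block called 0 carriers and 0 genes in all, and gave log2 fold changes of 0.73 for Slc25a44, 0.25 for Slc25a20 and, without the filter, -2.04 for Slc25a30 (adjusted p = 1.00). The 19 carriers below the filter have between 1 and 326 counts in the whole series.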
